A study of Mus musculus with 10 samples.

Results

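Inspiratory neurons of the preBötzinger complex (preBötC) depolarize during each burst through inward currents that include a calcium-activated non-specific cation current. The genes described here are 9 candidates for that current and its regulation from the transient receptor potential (TRP) family: 4 TRPM genes (Trpm4, Trpm5, Trpm2 and Trpm7), 4 TRPC genes (Trpc1, Trpc4, Trpc5 and Trpc6) and the mucolipin gene Mcoln1. They were taken by name from 55367 genes listed in the deposited files, with no threshold on their values. Each was examined in all 10 neurons. In GRCm38 coordinates, Trpm4 lies on chromosome 7 from 45302632 to 45333780 (minus strand), Trpm7 on chromosome 2 from 126791565 to 126876230 (minus), Trpm2 on chromosome 10 from 77907722 to 77970563 (minus) and Mcoln1 on chromosome 8 from 3500457 to 3515232 (plus). Trpc1 lies on chromosome 9 from 95705082 to 95750375 (minus), Trpc6 on chromosome 9 from 8544142 to 8680741 (plus), Trpc4 on chromosome 3 from 54156035 to 54318471 (plus) and Trpc5 on chromosome X from 144381671 to 144688180 (minus). All are protein-coding, and the values count fragments over their exons.

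The data came from 10 single inspiratory neurons of neonatal mouse slices, each recorded with a patch pipette into which its cytoplasm was then drawn, so a sample is 1 library from 1 neuron. Dbx1-derived neurons came from Dbx1;Ai148 pups, in which Cre driven by the Dbx1 promoter switches on the calcium indicator GCaMP6f and so marks descent from Dbx1-expressing precursors, not present Dbx1 expression. WT neurons came from CD-1 pups without a reporter. The 4 Type-1 neurons, which have a long inspiratory drive latency, were sample 4 (WT, P3), sample 5 (Dbx1-derived, P0) and samples 6 and 7 (Dbx1-derived, P3). The 1 Type-2 neuron, with a short latency, was sample 1 (Dbx1-derived, P0), and the 5 Unknown neurons, whose physiology was ambiguous, were samples 2 and 9 (WT, P2), samples 3 and 8 (WT, P0) and sample 10 (WT, P1). No animal is named for any neuron, so it is not known which neurons share one. For that reason no test was made between groups, and n counts neurons. A neuron with fewer transcripts and a library that recovered less of its RNA cannot be told apart here.

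TRPM4 and TRPM5 are cation channels that intracellular calcium opens directly and that pass sodium and potassium but little calcium, so they turn a calcium signal into depolarization. TRPM2 is opened by ADP-ribose together with calcium, and TRPM7 joins a channel to a kinase domain and takes part in magnesium handling. TRPC channels open after receptors that couple to Gq activate phospholipase C. TRPML1, the product of Mcoln1, releases calcium and other cations from lysosomes.

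The libraries held between 21392146 and 36629393 fragments counted on genes, and between 5055 and 9307 genes reached 1 FPKM (fragments scaled to a kilobase of gene length and to 1000000 fragments of the library). A count of 0 allows up to 3 fragments, which is between 0.0819 and 0.14 per 1000000 fragments. Sample 4 stood apart in its marker genes. The 8 genes of the neuron list summed to 58.4 FPKM there and to between 761 and 4670 FPKM in the other neurons, while the 9 genes of the microglia list summed to 15488 FPKM there and to between 0.685 and 2039 FPKM elsewhere. The transcription factor Dbx1 had no fragment in any of the 10 neurons. The study sets samples 1 to 4 apart for the lower and more variable expression of part of their genes, so counts of TRP genes are also given without them.

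In most neurons a TRP gene was either above 1 FPKM or near 0, as the plot of the 9 genes by neuron shows. Of the 90 pairs of a gene and a neuron, 22 (24.4%) reached 1 FPKM, 40 (44.4%) had no fragment, 24 lay above 0 and below 0.1 FPKM, and only 4 lay between 0.1 and 1 FPKM. Over all listed genes 13.4% of pairs reached 1 FPKM, 77.5% had no fragment and 2.86% lay between 0.1 and 1 FPKM. Over the 16546 genes that reached 1 FPKM in at least 1 neuron, these shares were 45%, 30.3% and 7.01%. For the 9 genes 4.44% of pairs lay between 0.1 and 1 FPKM, so the gap there was not particular to them. The 22 pairs rested on between 304 and 8761 fragments. In their own libraries they stood above 32.4% to 86.3% of the detected genes, with a median of 51.4%. Without sample 4 the pairs at 1 FPKM were 19 of 81 (23.5%, against 13.6% of all pairs), and without samples 1 to 4 they were 16 of 54 (29.6%, against 15.6%).

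**Figure D1:**
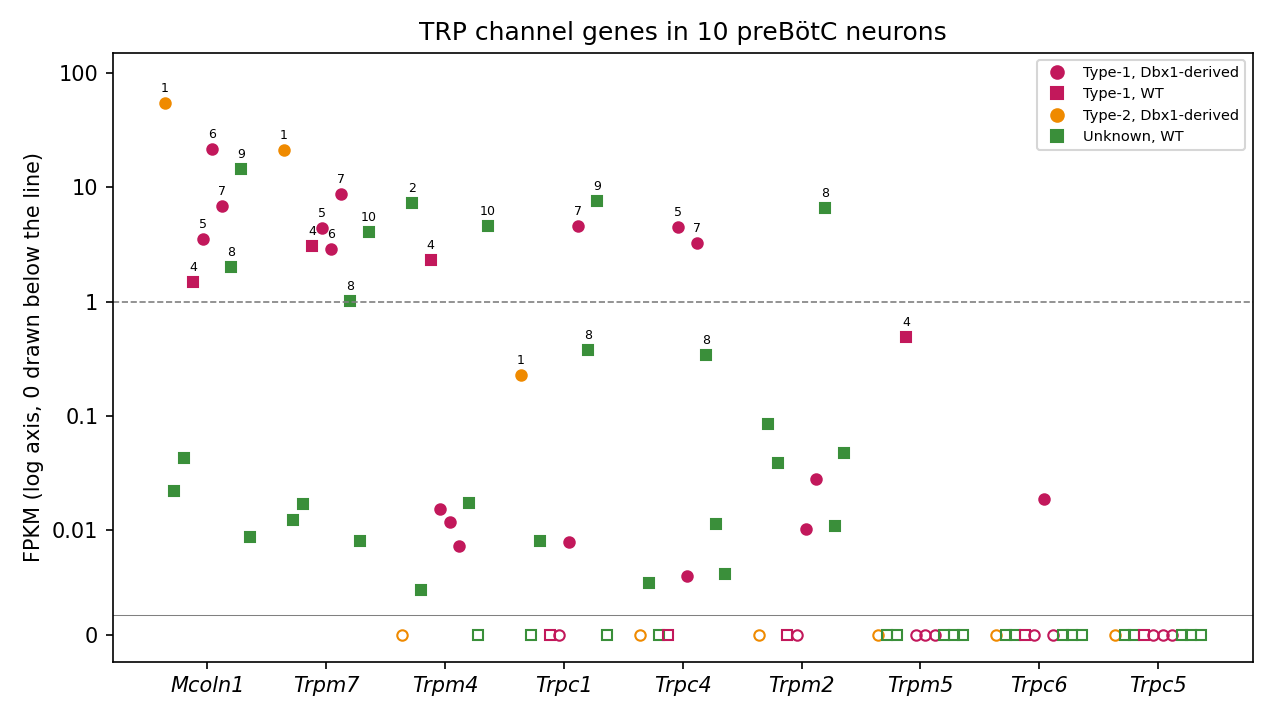
FPKM (log axis, 0 drawn below the thin line) of the 9 TRP genes in each of 10 neurons, ordered by mean level, with colours for neuron type, circles for Dbx1-derived and squares for WT neurons, and sample numbers beside values of 0.1 FPKM or more. Points gather above the dashed line at 1 FPKM or below 0.1 FPKM, with 4 in between.

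Of the 9 genes, 6 reached 1 FPKM in at least 1 neuron, where 29.9% of all listed genes did. Mcoln1 and Trpm7 did so in 7 neurons each, a spread that 8.92% of listed genes reached or exceeded. Trpm4 followed with 3 neurons, Trpc1 and Trpc4 with 2 each, and Trpm2 with 1. Trpm5, Trpc6 and Trpc5 never reached it.

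By mean level over the 10 neurons the order was Mcoln1 at 10.4 ± 17 FPKM (SD, n = 10 neurons), Trpm7 at 4.52 ± 6.4 FPKM, Trpm4 at 1.42 ± 2.56 FPKM and Trpc1 at 1.29 ± 2.65 FPKM. Trpc4 followed at 0.815 ± 1.65 FPKM, Trpm2 at 0.687 ± 2.09 FPKM, Trpm5 at 0.0489 ± 0.154 FPKM and Trpc6 at 0.00188 ± 0.00595 FPKM, with Trpc5 at 0. The SD exceeded the mean for each of the 8 genes with a fragment. No step between neighbours in this order could therefore exceed the larger of their SDs, so the SDs cannot tell whether neighbours differed. By the median Trpm7, at 2.97 FPKM, stood above Mcoln1, at 2.79 FPKM. Single neurons carried the means: Mcoln1 was at 5.54 FPKM and Trpm7 at 2.68 FPKM without sample 1, Trpm4 at 0.775 FPKM without sample 2, Trpc1 at 0.58 FPKM without sample 9, Trpc4 at 0.404 FPKM without sample 5 and Trpm2 at 0.0244 FPKM without sample 8. Trpm5 without sample 4 and Trpc6 without sample 6 were at 0.

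Trpm4, whose channel calcium opens directly, was high in 3 neurons and close to 0 in 7. Samples 2, 10 and 4 held 7.27, 4.6 and 2.32 FPKM of Trpm4, from 2854, 1519 and 740 fragments. In samples 3, 5, 6, 7 and 8 it was at 0.00297, 0.0151, 0.0117, 0.00719 and 0.0174 FPKM, from 6 fragments or fewer, and samples 1 and 9 had none. All 3 high neurons were WT, 2 of the 5 Unknown type and 1 of the 4 Type-1. The 3 Dbx1-derived Type-1 neurons and the Type-2 neuron were all in the low set, and so were 3 of the 6 WT neurons. The groups therefore overlapped in the low range.

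The high Trpm4 neurons were not those with the highest values of the vesicular glutamate transporter Slc17a6, as the plot of Trpm4 beside marker genes shows. In samples 5, 6, 7 and 8 Slc17a6 was between 101 and 230 FPKM and Trpm4 at 0.0174 FPKM or less. In samples 2, 4 and 10 Slc17a6 was at 1.85, 0.157 and 0.0303 FPKM. Samples 1, 3 and 9 were low for both. The microglia list summed to 15488, 2039 and 229 FPKM in samples 4, 2 and 10, with 9, 8 and 8 of its 9 genes at 1 FPKM or more. In the 7 neurons low for Trpm4 it summed to between 0.685 and 502 FPKM, with 0 to 7 genes at that level. Samples 8 and 3, with sums of 502 and 406 FPKM, were above sample 10 in that list and had 5 fragments and 1 fragment of Trpm4. The part of microglial RNA in the Trpm4 values was not tested. The astrocyte list summed to 2787, 5018 and 268 FPKM in samples 2, 4 and 10, with 8, 4 and 4 of its 10 genes at 1 FPKM or more, and to between 14.9 and 5514 FPKM in the 7 low neurons. The oligodendrocyte list summed to 205, 26.3 and 12.6 FPKM in the same high neurons, with 4, 3 and 1 of its 8 genes at that level, and to between 0.11 and 338 FPKM in the low ones. The part of this glial RNA in the Trpm4 values was not tested either. Vascular markers were near 0 in the high neurons, where the 8 genes of the endothelial list summed to 0.0121 FPKM or less and the 6 genes of the mural list to 0.171 FPKM or less.

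**Figure D2:**
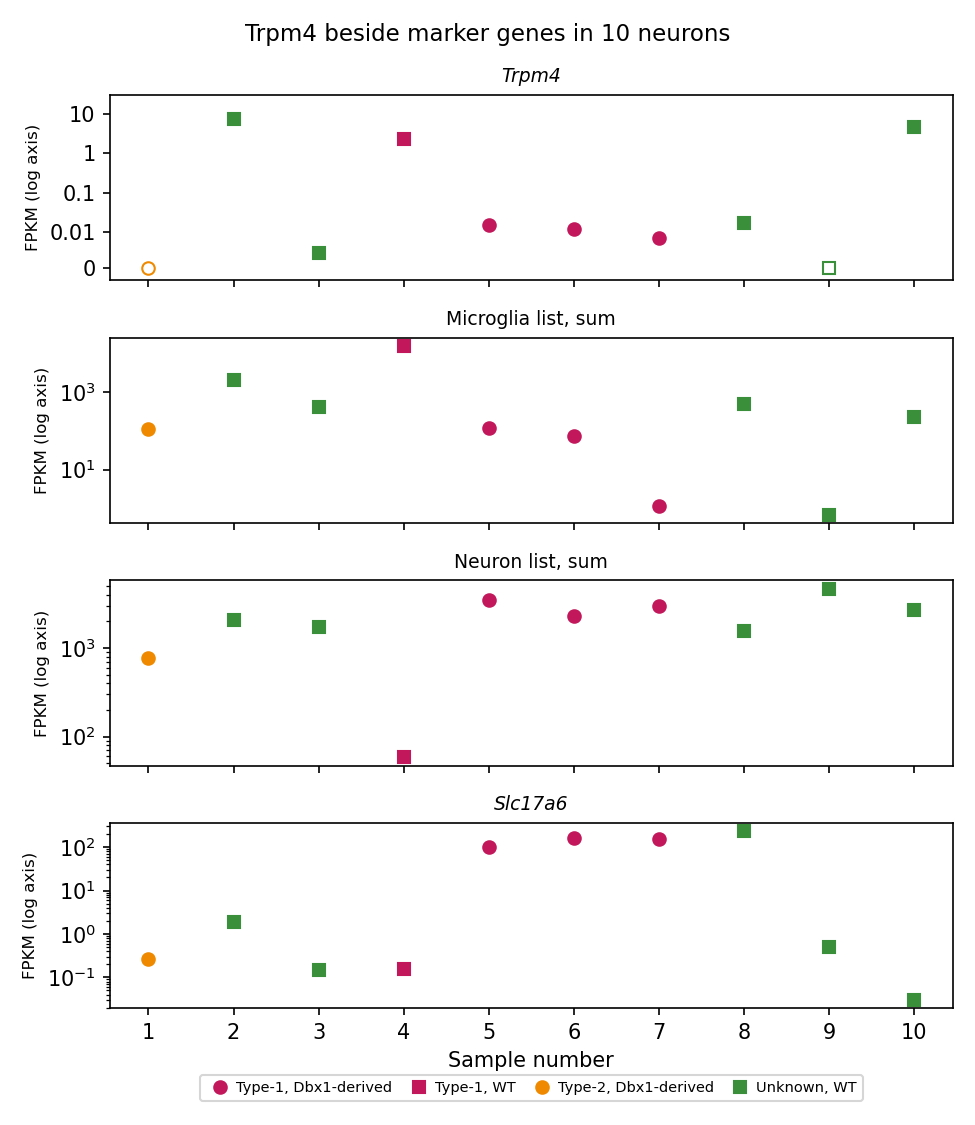
Level in FPKM (log axes) by sample number of Trpm4, the summed microglia list, the summed neuron list and the vesicular glutamate transporter Slc17a6, with colours for neuron type, circles for Dbx1-derived and squares for WT neurons, and an open symbol for 0. Trpm4 is high in samples 2, 4 and 10, where Slc17a6 is at 1.85 FPKM or less, and sample 4 has the highest microglia sum and the lowest neuron sum.

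Trpm5, the closest relative of Trpm4, was found in 1 neuron. Sample 4 had 92 fragments (exact 95% Poisson interval 74.2 to 113, counting error only), or 0.489 FPKM, and the other 9 neurons had 0. Trpm5 (chromosome 7, 143069153 to 143094642 in GRCm38, minus strand) shares 220 exon bases with Tssc4 on the opposite strand, and the counting is not stated to use strand. Tssc4 had 424 fragments in sample 4 and more in 7 neurons without a Trpm5 fragment, up to 2894 in sample 5. Where the Trpm5 fragments lie in the gene is not known, and the part of Tssc4 in their count was not tested. The only library with Trpm5 also had the highest microglia sum and the lowest neuron sum. The part of microglial RNA in its Trpm5 value was not tested. Among the Type-1 neurons, Trpm4 too reached 1 FPKM in sample 4 alone.

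Trpm2 was high in a single neuron. Sample 8 had 6.65 FPKM of Trpm2 from 2200 fragments, and no other neuron exceeded 0.0841 FPKM. Samples 2, 10 and 3 had 38, 18 and 15 fragments, and samples 1, 4 and 5 had none. Sample 4, with the highest microglia sum, had no fragment of Trpm2. In sample 8 the microglia list summed to 502 FPKM, with 7 of its 9 genes at 1 FPKM or more. Sample 8 was the 1 neuron in which all 10 genes of the astrocyte list reached 1 FPKM, summing to 1788 FPKM, although samples 2, 3 and 4 had higher sums. The part of microglial or astrocyte RNA in the Trpm2 value was not tested.

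Trpm7, the channel with a kinase domain, was the broadest of the TRPM genes. The Type-2 neuron, sample 1, had 21 FPKM of Trpm7, and the Type-1 neurons, samples 4 to 7, had 3.06, 4.41, 2.88 and 8.71 FPKM, so all 5 typed neurons were above 1 FPKM. Of the Unknown neurons, samples 10 and 8 had 4.06 and 1.01 FPKM, and samples 2, 3 and 9 had 0.0122, 0.017 and 0.00801 FPKM. The value of sample 8, from 304 fragments, had an interval of 0.901 to 1.13 FPKM and so lay at the limit. Type-1 and Unknown neurons overlapped through sample 10, whose value was above those of samples 4 and 6. The 3 lowest neurons had 5, 6 and 2 fragments.

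Mcoln1, the lysosomal channel gene, reached 1 FPKM in the same 5 typed neurons and in 2 Unknown neurons. It was highest in the Type-2 sample 1, at 54.2 FPKM from 8761 fragments, the largest count of any of the 9 genes. The Type-1 samples 4 to 7 had 1.49, 3.55, 21.5 and 6.83 FPKM, sample 4 being the lowest. Sample 9 had 14.4 FPKM and sample 8 had 2.02 FPKM, while samples 2, 3 and 10 had 0.0219, 0.0425 and 0.00867 FPKM from 10 fragments or fewer. In the 8 neurons where either gene reached 1 FPKM, Mcoln1 was higher than Trpm7 in 4 (samples 1, 6, 8 and 9) and lower in 4 (samples 4, 5, 7 and 10). Mcoln1 was 2.58 times Trpm7 in sample 1 and 7.47 times in sample 6. Sample 10 had Trpm7 without Mcoln1, and sample 9 had Mcoln1 without Trpm7.

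The TRPC genes were sparse. Samples 9, 7, 8 and 1 had 7.64, 4.6, 0.375 and 0.227 FPKM of Trpc1, and the other 6 had no more than 0.008 FPKM. Samples 5, 7 and 8 had 4.52, 3.27 and 0.342 FPKM of Trpc4, and the other 7 had no more than 0.0113 FPKM. Both Trpc4 neurons at 1 FPKM were thus Dbx1-derived Type-1 neurons, while the third neuron of that kind, sample 6, had 1 fragment. Sample 7 was the 1 neuron with both genes at that level. Trpc6 had 3 fragments in sample 6 and none elsewhere. Trpc5 had no fragment in any neuron, and 3 fragments in a library would be between 0.0163 and 0.028 FPKM.

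The combinations differed between neurons. Sample 7 had 4 of the 9 genes at 1 FPKM or more (Trpm7, Trpc1, Trpc4 and Mcoln1), the highest number. Samples 4, 5 and 8 had 3, samples 1, 6, 9 and 10 had 2, sample 2 had Trpm4 alone and sample 3 had none. Trpm7 and Mcoln1 were together in 6 neurons. Trpm4 was never at that level in the same neuron as Trpm2, Trpc1 or Trpc4, and with Mcoln1 it was found in sample 4 only. In sample 3 the 9 genes summed to 0.109 FPKM and the 19 other TRP genes to 0.0229 FPKM, although all 8 genes of the neuron list were at 1 FPKM or more there. Sample 3 also had the fewest genes at 1 FPKM, 5055, close to the 5065 of sample 1, which had 5 TRP genes at that level.

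Low counts were set beside those that reads assigned to the wrong library would give. Genes nearly private to 1 library, 47 to 188 per library, were found in other libraries at up to 0.157% of their counts. These genes were chosen for low counts elsewhere and their highest ratios were trimmed, so the rates may be too low. From these rates, the 22 pairs at 1 FPKM or more had at most 1.01% of their fragments expected from other libraries. Of the 28 pairs with a fragment but below 1 FPKM, 16 had a count whose 95% Poisson interval reached down to the expected count. These included every low count of Trpm7 and Mcoln1. For Mcoln1, samples 2, 3 and 10 had 6, 10 and 2 fragments where 4.43, 5.66 and 0.469 were expected, and for Trpm7, samples 2, 3 and 9 had 5, 6 and 2 where 3.86, 3.67 and 3.94 were expected.

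The other 12 low pairs were above the expected count. They included 92 fragments of Trpm5 in sample 4 and 3 of Trpc6 in sample 6. No other library had a fragment of either gene, so their expected counts were 0 by construction and decide nothing. Also among the low pairs were 80 and 39 fragments of Trpc1 in samples 8 and 1, where 0.902 and 1.08 were expected. Trpc4 in sample 8, with 73 fragments against 0.261, was another. Trpm2 accounted for 5 of them: its 38, 15, 4, 9 and 18 fragments in samples 2, 3, 6, 7 and 10 compared with 1.54, 0.00478, 0.163, 0.82 and 0.314 expected. The plot of counted against expected fragments shows both sets.

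**Figure D3:**
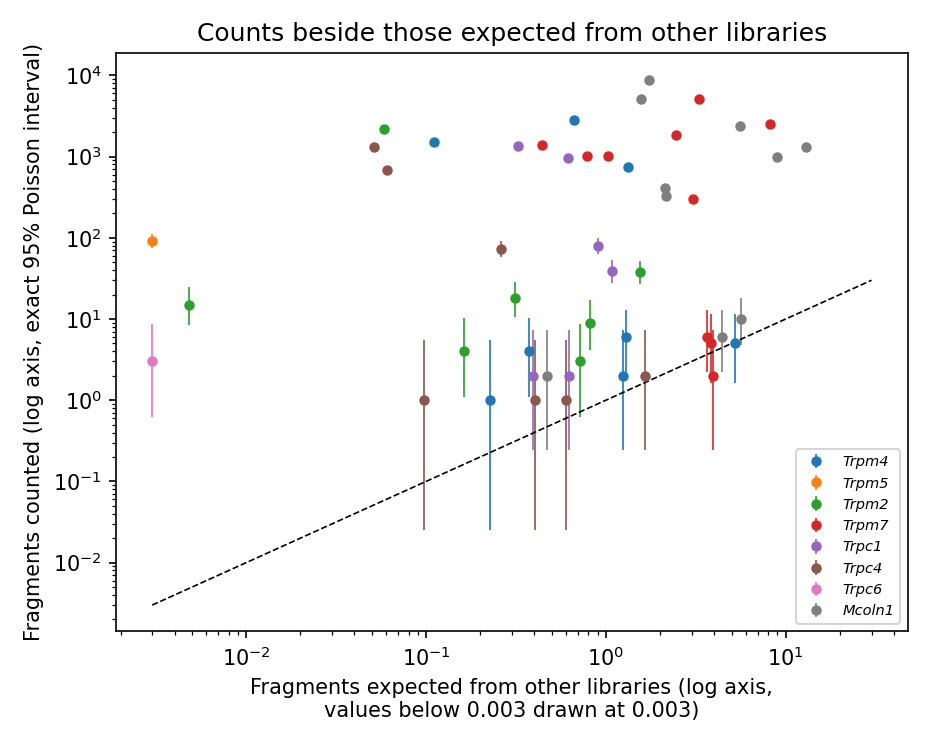
Fragments counted (log axis, exact 95% Poisson intervals) against fragments expected from other libraries (log axis, values below 0.003 drawn at 0.003) for each gene and neuron with at least 1 fragment, coloured by gene, with a dashed line of equality. The 22 pairs at 1 FPKM or more, all at 304 fragments or more, lie far above the line, and 16 low pairs have intervals that reach down to it.

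The comparisons that the labels allow left all 9 genes with overlapping groups. In each comparison only 6 of the 9 reached 1 FPKM in a compared neuron, the rule for the shares of all genes given here. At shares so low, 0 of 6 is no result particular to these genes. Between the 4 Type-1 and 5 Unknown neurons, 0 of 9 genes had values that did not overlap, where 0.992% of the 16238 genes that reached 1 FPKM in a compared neuron did (0.591% higher and 0.4% lower in Type-1). Between the 4 Dbx1-derived and 6 WT neurons it was 0 of 9, against 1.83% of 16546 genes (1.04% higher and 0.792% lower in Dbx1-derived neurons). Between the 4 neurons of P0 and the 5 of P2 and P3 it was 0 of 9, against 0.685% of 16069 genes (0.292% higher and 0.392% lower at P0). Neuron type and mouse line cannot be told apart among Type-2 and Unknown neurons, since every Unknown neuron was WT and the Type-2 neuron Dbx1-derived.

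The overlaps were partial for Trpm7 and Mcoln1 between the mouse lines. Trpm7 had a median of 6.56 FPKM in the 4 Dbx1-derived neurons (range 2.88 to 21 FPKM) and of 0.514 FPKM in the 6 WT neurons (range 0.00801 to 4.06 FPKM). Mcoln1 had medians of 14.2 and 0.765 FPKM in the same groups, with ranges of 3.55 to 54.2 FPKM and 0.00867 to 14.4 FPKM. The highest Dbx1-derived value of both genes was that of the Type-2 neuron, sample 1. That library had 146, 71.8 and 43.5 FPKM of Slc6a5, Gad1 and Gad2, of the GABAergic or glycinergic list, and 0.26 FPKM of Slc17a6. Figure captions of the study place samples 1 to 6 among CD-1 mice and samples 7 to 10 among Dbx1;Ai148 mice. The labels, which were used here, instead give samples 1, 5 and 6 as Dbx1-derived and samples 8, 9 and 10 as WT. The text of the study gives the Type-2 neuron and 3 Type-1 neurons as Dbx1-derived, as the labels do. All 4 Dbx1-derived neurons were at 1 FPKM or more for Trpm7 and Mcoln1, and 3 of the 6 WT neurons were for each. Trpm4 went the other way, with 0 of 4 Dbx1-derived and 3 of 6 WT neurons at that level. The share of all genes with such counts by line was not computed, so these counts are not read as line differences. The number of genes at 1 FPKM was 5065 in the Dbx1-derived sample 1 and between 8720 and 9223 in samples 5 to 7. In the WT samples 2, 3, 4 and 9 it was between 5055 and 6795. The WT samples 8 and 10 had 9307 and 9222. Of the WT neurons, samples 2, 3 and 4 belong to the 4 libraries that the study sets apart, as does the Dbx1-derived sample 1, and the part of library quality in these values was not tested.

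Of the 19 other TRP channel genes, 12 reached 1 FPKM in at least 1 neuron, against 6 of the 9 described, and 6 had no fragment in any. In at least 3 neurons it was 5 of 19 and 3 of 9, where 18.8% of listed genes were. No test compared these groups of genes. Their median of mean levels was 0.305 FPKM, against 0.815 FPKM for the 9 genes and 4.05 FPKM for all genes that reached 1 FPKM in some neuron.

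Pkd2l2, a polycystin gene, reached 1 FPKM in 6 neurons with a mean of 2.35 ± 2.72 FPKM (SD, n = 10 neurons), and its relative Pkd2, a channel of cilia and endoplasmic reticulum, in 4 with 1.74 ± 2.74 FPKM. Trpv2 was at 2.56 ± 3.96 FPKM and Trpm3 at 1.1 ± 1.95 FPKM, with 3 neurons each at that level. Trpa1, a channel of sensory neurons opened by irritants, had a mean of 3.33 ± 10.5 FPKM, nearly all of it from 33.2 FPKM in sample 9. None of the 28 genes reached 1 FPKM in 8 or more neurons, a spread found in 6.67% of listed genes.

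The genes that act upstream of TRP channels were broader. In the list of receptors and the Gq and phospholipase C pathway, 15 of 17 genes reached 1 FPKM in at least 1 neuron and 6 in at least 8. The highest were Pip5k1c, an enzyme that makes the lipid phospholipase C cleaves, at 59.7 ± 45 FPKM, the G protein subunit gene Gna11 at 33.9 ± 26.2 FPKM and the diacylglycerol kinase gene Dgkz at 24.2 ± 50.2 FPKM (SD, n = 10 neurons). Among the store release and store-operated partners, 12 of 14 genes reached 1 FPKM in at least 1 neuron and 0 in 8 or more. The calcium entry channel genes led that list by mean level, with Orai3 at 13.2 ± 26.6 FPKM, Orai2 at 12.9 ± 12.9 FPKM and Orai1 at 4.18 ± 9.43 FPKM. Orai2 reached 1 FPKM in 7 neurons, but Orai3 only in 3 and Orai1 only in 2. The highest values were 78.6 FPKM of Orai3 in sample 2 and 28.2 FPKM of Orai1 in sample 8.

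The listed regulators and partners of TRPM4 and TRPM5 included genes found everywhere. Of 9 genes, 5 were at 1 FPKM or more in all 10 neurons, where 2.33% of listed genes were. Calm2, which encodes calmodulin, the calcium sensor that TRPM4 binds, was among them at 1600 ± 703 FPKM (SD, n = 10 neurons), as was the adaptor gene Ywhab at 267 ± 149 FPKM. Abcc8, which encodes the sulfonylurea receptor SUR1 and was singled out after its values were seen, had 84.2 and 3.76 FPKM in samples 1 and 5, where Trpm4 had 0 and 6 fragments. In the 3 high Trpm4 neurons, samples 2, 4 and 10, Abcc8 did not exceed 0.00682 FPKM.

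Lysosomal genes listed beside Mcoln1 were also broad. Of 14 genes, 13 reached 1 FPKM in at least 1 neuron and 3 in all 10. Lamp1, a lysosomal membrane protein gene, had a mean of 152 FPKM (range 0.682 to 406 FPKM), the protease gene Ctsd at 149 ± 133 FPKM and the proton pump subunit gene Atp6v0d1 at 142 ± 79.7 FPKM. In sample 1, where Mcoln1 was highest, Lamp1 was at its lowest, 0.682 FPKM, and Ctsd was at 122 FPKM. Sample 4 had the highest Ctsd, 461 FPKM, and the lowest Mcoln1 of the 7 neurons in which that gene reached 1 FPKM.

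Other channels of inward currents in inspiratory bursts reached 1 FPKM in at least 1 neuron for 7 of 9 listed genes. The sodium channel genes Scn1a, Scn2a and Scn3a led them with 15.8 ± 22 FPKM, 11.7 ± 10.7 FPKM and 11.5 ± 9.45 FPKM (SD, n = 10 neurons). In sample 10, which had Trpm4 at 4.6 FPKM, the 3 genes were at 11.5, 3.54 and 6.85 FPKM. In sample 2, with Trpm4 at 7.27 FPKM, they were at 0.0247, 0.587 and 25.8 FPKM.

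Trpm4, Trpm7 and Mcoln1 each reached 1 FPKM in 3 neurons or more, and the most similar patterns were sought among 10419 other genes that did so, by Pearson's r of log2(FPKM + 1) over the 10 neurons. The 10 points differ in depth and library quality, and the highest of so many values is high by selection. For Trpm4 they were Ctxn3 (r = 0.998, Spearman's rho 0.72), the transcription factor gene Nfix (0.965, rho 0.859) and Tiparp (0.961, rho 0.848), all 3 highest in sample 2. For Trpm7 they were the ubiquitin ligase gene Mycbp2 (0.982, rho 0.903), Sirt7 (0.957, rho 0.915) and Yrdc (0.954, rho 0.879). For Mcoln1 they were the kinase gene Hipk2 (0.975, rho 0.976), Pcnx (0.957, rho 0.927) and the transcription factor gene Stat3 (0.939, rho 0.915). The most similar TRP gene that could be compared was Pkd2l2, at place 101 for Trpm7 (r = 0.831, rho 0.742), while Trpm7 and Mcoln1 had r = 0.538 and rho 0.309, and Trpm4 and Mcoln1 had r = -0.63 and rho -0.748.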

How the data were processed

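RNA from 10 single preBötC neurons was amplified (SMART-Seq v4) and sequenced as 1 library each. The authors trimmed reads, aligned them with STAR 2.7.7a to GRCm38 and deposited raw fragment counts per gene from featureCounts. They also deposited FPKM values, computed from these counts, each gene's length and the library total. How fragments that match several genes or strands were treated was not given in the sources used here. Fragments carried no unique molecular identifiers, so intervals and floors cover counting error only.

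Deposited FPKM was the main unit. Rates between libraries came from genes with at least 1000 counts in 1 library and no more than 2% of these in any other, after trimming the highest 5% of ratios. The first planned setting (10000 counts, 1%) left 5 libraries without a gene. Scripts were checked on simulated data. Positions and exon overlaps are from GENCODE M21 on GRCm38, whose exon lengths equal the deposited lengths for all 9 genes. Members, lists and rules were chosen with earlier results of these data known. Named genes were the 9 members, the 3 highest of each list, other TRP genes at 1 FPKM in at least 3 neurons, the 3 most similar genes, and markers. Some genes that this rule names are not reported here. The oligodendrocyte, transmitter and preBötC lists reached 1 FPKM in at least 1 neuron for 6 of 8, 5 of 7 and 4 of 5 genes. Protein sequences were not analysed here. Alternatives were TPM, thinning, subtraction of expected counts, other limits and averages, and leaving out neurons. Computations ran in Python 3.11.15 (pandas 2.3.3, NumPy 2.4.6, SciPy 1.17.1) and plots in Matplotlib 3.10.9.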

Additional observations from a re-analysis of the deposited data

Results flagged for a closer look

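Of 13 groups of values examined (a TRP gene in the 4 Type-1 or the 5 Unknown neurons), 6 had an extreme neuron under Dixon's criterion. Chance flags about 1 in 20 groups, and a gene found in a single neuron of a group meets the criterion by its nature, so the flags are not independent evidence. Among the Type-1 neurons, sample 4 stood apart for Trpm4 at 2.32 FPKM and for Trpm5 at 0.489 FPKM, and sample 7 for Trpc1 at 4.6 FPKM. Among the Unknown neurons, sample 8 stood apart for Trpm2 at 6.65 FPKM and for Trpc4 at 0.342 FPKM, and sample 9 for Trpc1 at 7.64 FPKM. Sample 4 is the library with the highest microglia sum, 15488 FPKM, whose part in its Trpm4 and Trpm5 values was not tested.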

How the results depend on the processing

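Mean levels and counts were recomputed in TPM, after thinning to the smallest library, after subtracting fragments expected from other libraries, with other averages and limits, and without neurons. In TPM the mean of Trpm7 was 12.8 and that of Mcoln1 29.1. Trpm4, Trpc1, Trpc4 and Trpm2 were at 3.1, 3.01, 2.36 and 1.66 in TPM. TPM multiplies all FPKM values of a library by a common factor and is a different unit. The higher means are therefore not read as a change in level, and an SD in FPKM is no measure of them. The factor differs between libraries, so comparisons between neurons can change. Trpm4 was at 7.27 and 4.6 FPKM in samples 2 and 10, and at 13.9 and 13.6 TPM. Averaging log2(FPKM + 0.1) and turning it back lowered the levels to 2.11 for Mcoln1, 1.38 for Trpm7 and 0.227 for Trpm4. Trpc1, Trpc4 and Trpm2 fell to 0.203, 0.147 and 0.0819. As the SDs exceeded the means, any such fall lay within 1 SD. Without samples 1 to 4 the mean of Trpm4 was 0.775 FPKM, below Trpc1 at 2.1, Trpc4 at 1.36 and Trpm2 at 1.12 FPKM. By median FPKM Mcoln1 took place 2 behind Trpm7. The 22 pairs at 1 FPKM or more became 9 at a limit of 5 FPKM and 50 with at least 1 fragment. Leaving out 1 neuron at a time gave between 18 and 22 pairs and kept Mcoln1 first by mean level. The groups overlapped for all 9 genes in TPM, after the subtraction and without sample 4. No paired analysis was possible because the labels number neurons from 1 to 10 and share no number between groups. With 1 library per neuron, a gene without a fragment was not detectable at this depth, and cannot be called absent.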

Other observations

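Genes that reached 1 FPKM in a single neuron were frequent among the other TRP genes but not among the 9 described. Of the 28 TRP genes, 18 reached 1 FPKM in at least 1 neuron. Of those 18, 8 (44.4%) did so in exactly 1, where 24.9% of the 16546 genes that reached it anywhere did. The share was 7 of 12 (58.3%) among the other TRP genes and 1 of 6 (16.7%) among the 9 described. No test compared these groups of genes. The following genes were singled out after their values were seen. Mcoln2, the relative of Mcoln1, was at 19.5 FPKM in sample 4 and nowhere else above 0.029 FPKM, so the library with the highest microglia sum had the related gene at a higher level than Mcoln1 itself, at 1.49 FPKM. Trpv6, an epithelial calcium channel gene, was at 11.9 FPKM in sample 7, Trpm8, a cold-sensing channel gene, at 5.05 FPKM in sample 8 and Trpc7 at 3.04 FPKM in sample 1, the Type-2 neuron.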
